A study of Mus musculus with 37 samples.

Results

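Gfap, Aldh1l1, Tubb3 and Eno2 are the astrocyte and neuron marker genes with which the study compared the cellular make-up of its facial nucleus samples. They were taken from the array annotation by gene name, with Aldh1l1 also by its description, and account for 4 of the 27845 gene names and 7 of the 41174 gene probes on the array. Gfap was represented by 3 probes, Eno2 by 2, and Aldh1l1 and Tubb3 by a single probe each. The question addressed here is how high each marker stood, how much it varied from sample to sample, whether the probes of a gene gave the same reading, and which other genes varied with it.

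The samples came from adult mice. Their brainstem was sectioned and stained with cresyl violet, and RNA was taken from the facial motor nucleus after laser dissection. All mice carried homozygous floxed Jun. In KO mice nestin-cre, which is active in the neural precursors of the central nervous system, had deleted Jun there, and WT mice were cre-negative littermates. Both genotypes were studied without injury (4 KO, 4 WT) and at day 1 (4 KO, 4 WT), day 4 (6 KO, 6 WT) and day 14 (4 KO, 5 WT) after axotomy of the facial nerve. Amplified RNA was labeled with Cy3 (19 animals) or Cy5 (18 animals) and hybridized to two-color Agilent arrays, of which 20 on 6 slides were read, giving 20 green (Cy3) and 20 red (Cy5) channels. The labels note 2 repeats for 2 uninjured animals, so the channels are not all separate animals, and the 37 animals account for 39 of the 40 channels.

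The materials used here do not say which animal was in which channel, and the array and sample cells of the file headers had been emptied. No channel was given a genotype or a time point, so WT and KO, or injured and uninjured, cannot be compared here. Every value below is a description of the channels of a dye, as their lowest, median and highest level, without a test. Levels are log2 signals after quantile normalization over the 40 channels, so that 1 unit is a doubling. A correlation over the 20 channels of a dye mixes genotypes, time points and slides. Both channels of an array shared its hybridization. What else the arrays of a slide shared is not stated in the labels, so channels on a slide may not be independent.

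Gfap encodes the intermediate filament protein of astrocytes and is known to rise when astrocytes become reactive, as they do around axotomized motor neurons. Aldh1l1 encodes a folate enzyme that is widely used as a marker of astrocytes in general. Tubb3 encodes a beta-tubulin of neuronal microtubules and Eno2 the neuronal form of the glycolytic enzyme enolase. In pieces of tissue such as these, fewer cells of a type and less RNA per cell cannot be told apart.

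The array annotation places the probes on mouse build mm8 (NCBI36). On chromosome 11 the Gfap probe for the transcript AK140151 lies at 102706589 to 102706648, the K01347 probe at 102703692 to 102703752 and the NM_010277 probe at 102705563 to 102708012, all on the minus strand. The NM_010277 interval is 2450 bases wide and takes in the whole AK140151 interval of 60 bases. The Aldh1l1 probe for NM_027406 is placed on chromosome 6 from 90563845 to 90564405, and the Tubb3 probe for NM_023279 on chromosome 8 from 126307891 to 126307950. Both Eno2 probes were designed on NM_013509 and lie on chromosome 6, the first from 124726146 to 124726205 and the second from 124725649 to 124725682. Exon boundaries on this build were not used here. The K01347 and Tubb3 probes were spotted 10 times per array and the others once.

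Transcripts of motor neurons and of astrocytes were both detected. All 7 marker probes were above background in most channels, and 5 of them were well above it in all 40. The exceptions were the K01347 probe of Gfap, at 39 channels, and its NM_010277 probe, at 37. Of all 41174 gene probes, 16343 were well above background in all 40 channels with an unflagged spot in each. Among genes of cholinergic motor neurons, Slc5a7 (the choline transporter), Slc18a3, Isl1, Prph, Calca and Ache were well above background in all 40 channels. Chat, the acetylcholine-synthesizing enzyme, passed in 35 channels.

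Tubb3 was among the brightest transcripts of the nucleus. Its level ranged from 15.93 to 17.55 over the green channels, with a median of 16.63, and from 15.49 to 17.49 over the red channels, with a median of 16.55. Ordered by median level, its probe stood at place 93 of 41174 in green and 105 in red. Eno2 came next. Its first probe ranged from 14.46 to 15.27 in green, with a median of 14.75, and from 13.93 to 14.82 in red, with a median of 14.57. This placed Eno2 above 98.5% of the gene probes in green and 98.1% in red.

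The astrocyte markers were less bright than the neuronal ones. Aldh1l1 ranged from 12.20 to 12.96 in green, with a median of 12.43, and from 11.85 to 12.95 in red, with a median of 12.39. It stood above 92.2% of the probes in green and 92.0% in red. The brightest Gfap probe, that for AK140151, had a median of 12.23 in green and 11.99 in red, above 91.4% and 90.1% of the probes. Among only the probes well above background in all channels these places were lower, at 78.7% in green and 75.6% in red for Gfap, 80.8% and 80.3% for Aldh1l1, 96.2% and 95.4% for Eno2 and 99.4% in both dyes for Tubb3. Within a dye, every Tubb3 channel lay above every Eno2 channel, and every Eno2 channel lay above every channel of the astrocyte genes except that in red the highest Gfap channel (13.96) passed the lowest Eno2 channel (13.93), whereas all Aldh1l1 values fell inside the span of the Gfap values. The brightness of a probe depends on how it hybridizes as well as on the RNA, so this order is an order of probes. The other Gfap probes were dimmer, with medians of 9.33 (K01347) and 8.50 (NM_010277) in green.

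**Figure D1:**
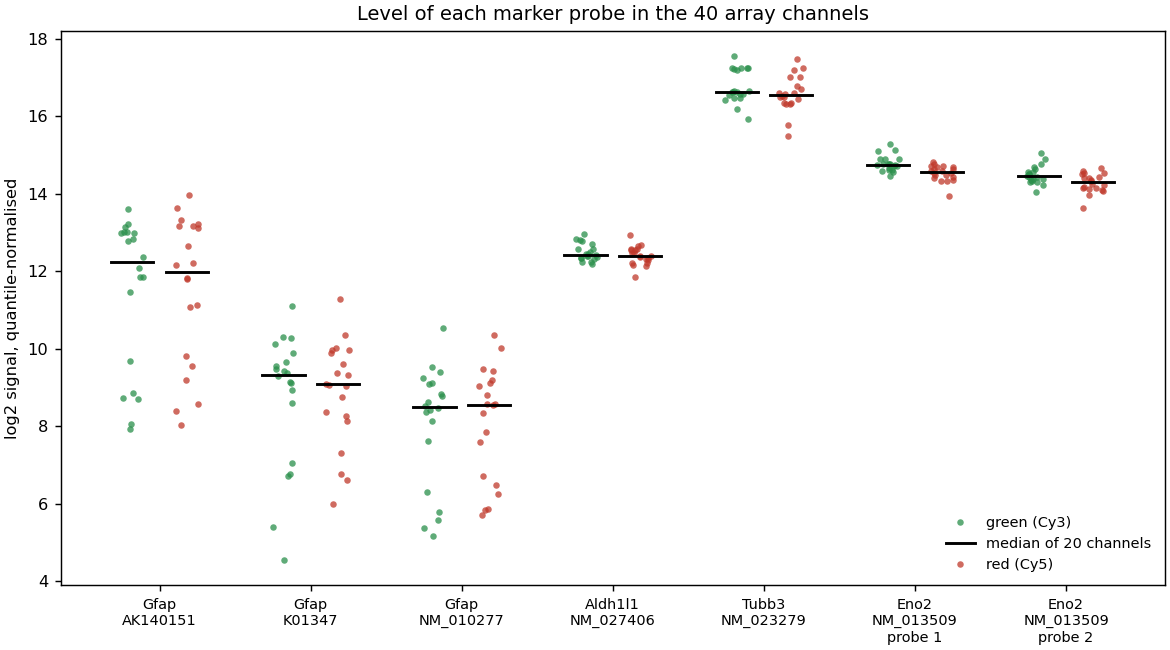
Level of each of the 7 marker probes (log2 signal, quantile-normalized) in the 20 green and 20 red channels, with a point per channel and a bar at the median. Tubb3 lies highest, with medians of 16.63 and 16.55, and the 3 Gfap probes spread more widely than the Aldh1l1, Tubb3 and Eno2 probes.

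Gfap stood apart from the other markers in how much it varied. Its AK140151 probe ranged from 7.92 to 13.62 in green, a span of 5.70 or 52.0-fold, and from 8.04 to 13.96 in red, a span of 5.92 or 60.7-fold. Over the 16343 probes that were well above background in all 40 channels, the median span was 1.22 in either dye. Gfap exceeded the span of 99.8% of these probes in green and 99.9% in red. The green spans of the other Gfap probes were 6.57 (K01347) and 5.35 (NM_010277) and the red ones 5.29 and 4.65, and in red they include channels not well above background. The interquartile range of the AK140151 probe was wider, at 3.52 in green and 3.42 in red, against 1.51 and 1.68 for K01347 and 1.79 and 2.47 for NM_010277. The full green range of the AK140151 probe occurred within a single slide, which held channels at 7.92 and 13.62.

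In the green channels the AK140151 probe of Gfap left a wide empty stretch. It read between 7.92 and 9.68 in 6 channels, those of arrays 6, 11, 12, 16, 17 and 18, and between 11.47 and 13.62 in the other 14. The gap between these sets took up 31.4% of the range, and without the quantile step, a comparison added after the data had been seen, 35.4%. The widest green gap was 23.5% of the range for the K01347 probe and 24.9% for the NM_010277 probe, each with 5 channels below it, and the channel of array 17 was above it on both. In the red channels the widest gap was 21.3% of the range, and 3 red channels lay inside the empty stretch of the green ones. Which animals the low channels held is not known here.

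Aldh1l1, the other astrocyte marker, was among the steadiest transcripts in green, with a span of 0.76 that exceeded only 11.3% of the probes, although without the quantile step it exceeded 43.1%. In red its span was 1.10, above 40.4% of the probes, and its lowest channel, at 11.85, was that of array 13. Eno2 was similarly even. The span of its first probe was 0.81 in green and 0.89 in red, above 15.1% and 22.7% of the probes, and that of its second probe was 1.01 and 1.03, above 32.3% and 34.7%.

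On the quantile-normalized scale Tubb3 varied somewhat more than a typical transcript. Its span was 1.62 in green and 2.00 in red, or 3.07-fold and 4.00-fold, above 74.4% and 86.6% of the probes. The spans were 1.89 and 2.73 without the quantile step, above 56.8% and 89.8% of the probes. In green, 7 channels lay between 17.21 and 17.55 and the remaining 13 at or below 16.66, a gap of 33.7% of the range on the quantile-normalized scale. Without the quantile step the widest green gap was 14.8% of the range, with 9 channels above it, and with equal 75th percentiles it was also 14.8%, with 5 above it. In the red channels the widest gap was 12.1% of the range, and 5 of them lay inside the green gap. The highest green channel was that of array 14 and the lowest that of array 2.

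The spread of the markers was also set beside that of other genes of the same cell types. Of 15 astrocyte genes, Gfap had the widest span in both dyes. The next widest were Aqp4, the astrocyte water channel, at 2.55 in green and Vim, another intermediate filament of reactive astrocytes, at 3.19 in red. Aldh1l1 had the narrowest span of the astrocyte genes in green and the fifth narrowest in red. Of 16 broad neuronal genes, Eno2 by its first probe had the narrowest span in both dyes, although its second probe, at 1.03 in red, was wider than Mapt, a microtubule-associated protein, at 0.99. In the same list Gap43, a growth cone protein, had a green span of 4.82 and Syn1, a synaptic vesicle protein, a red span of 4.74.

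**Figure D2:**
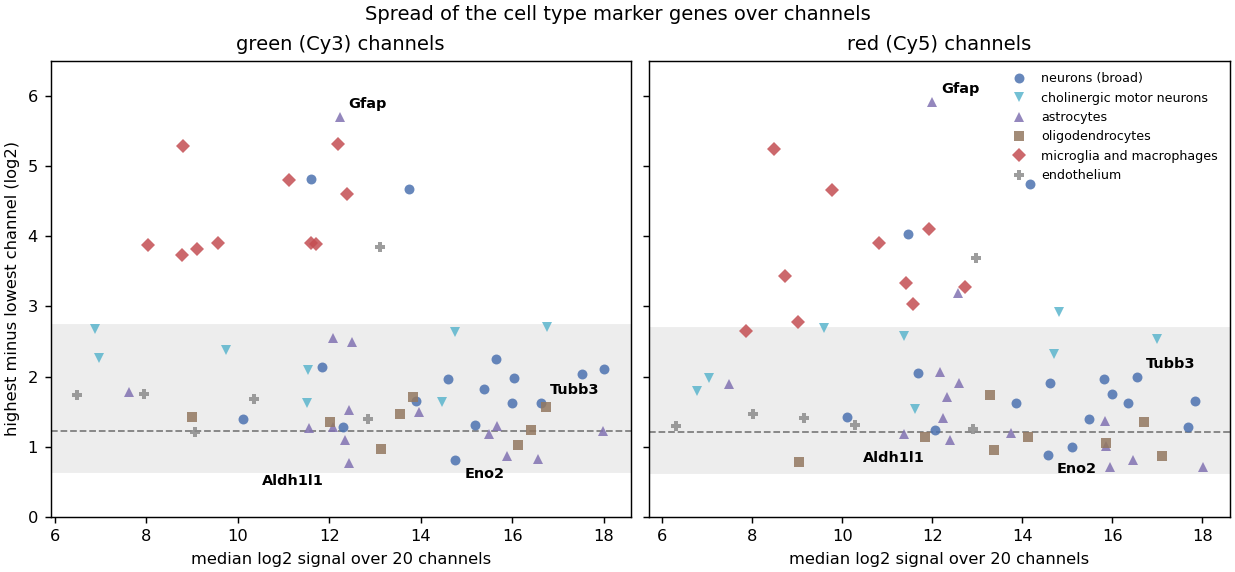
Span of each cell type marker gene (highest minus lowest of 20 channels, log2) against its median level, for green and red channels. The dashed line is the median span of the probes well above background in all channels (1.22) and the gray band their 5th to 95th percentile; Gfap lies highest in both panels, and Aldh1l1 and Eno2 lie below the dashed line.

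The 3 Gfap probes rose and fell together but did not keep a fixed distance. The K01347 and NM_010277 probes followed each other closely, with r = 0.97 in green and 0.96 in red (rho = 0.94 and 0.95, n = 20 channels per dye). The AK140151 probe followed K01347 with r = 0.89 in green and 0.83 in red, and NM_010277 with r = 0.86 and 0.87. Without the 2 channels farthest from the median, its r with K01347 was 0.84 in green and 0.76 in red, and after subtraction of slide medians it was 0.91 and 0.75.

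The AK140151 probe usually read several times brighter than the K01347 probe. The median difference was 2.80 in green and 2.77 in red, and it was above 2 in 17 green and 16 red channels. In 3 channels this difference nearly vanished. It was -0.21 in the green channel of array 17, where the AK140151 probe read 8.72 and the K01347 probe 8.93. It was 0.31 in the red channel of array 5, with readings of 8.57 and 8.26, and 0.17 in the red channel of array 19, with readings of 9.19 and 9.03.

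In these channels the AK140151 probe was near the bottom of its range while the K01347 probe was not. In the green channel of array 17 and the red channel of array 19 the NM_010277 probe was likewise close to its median, at 8.52 and 8.54. In the red channel of array 5 it read 6.47. Those channels had 61.5%, 51.3% and 60.5% of probes well above background, against medians of 62.3% in green and 53.1% in red, and their median correlation with the other channels was 0.96. The part of channel quality in these readings was not tested. The next smallest difference was 1.27, in the red channel of array 8.

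**Figure D3:**
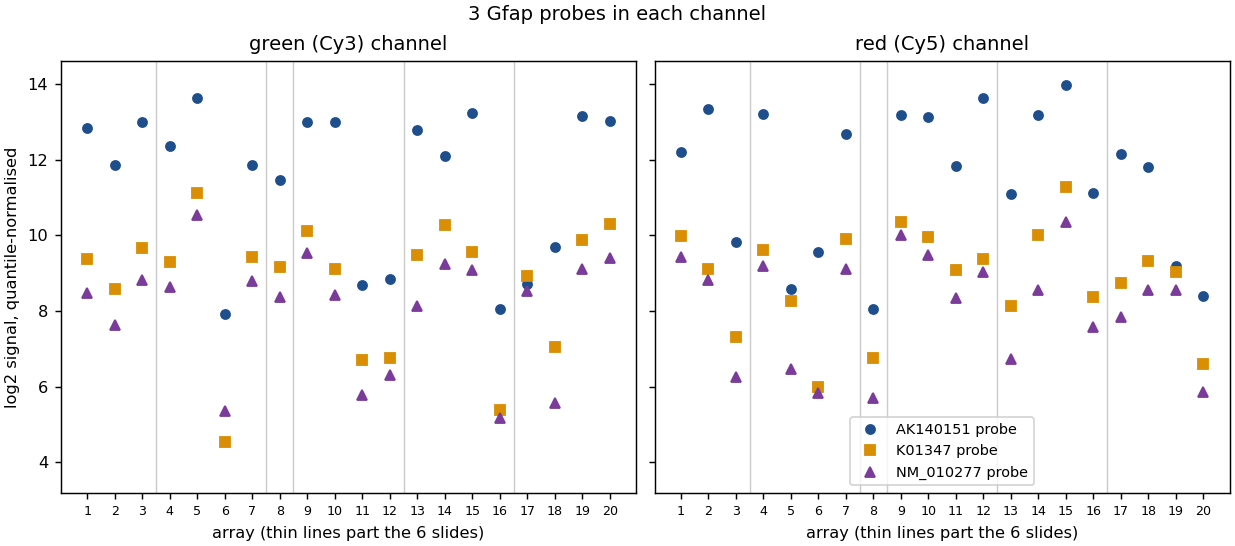
Level of the 3 Gfap probes (log2 signal, quantile-normalized) in the green and red channel of each of the 20 arrays. The AK140151 probe lies above the others except in the green channel of array 17, and it comes close to the K01347 probe in the red channels of arrays 5 and 19.

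The 2 Eno2 probes agreed in level as well as in pattern. They correlated with r = 0.90 in green and 0.93 in red, and with r = 0.79 and 0.89 without the 2 farthest channels. The first probe was brighter by 0.29 in green and 0.28 in red at the median, and this difference stayed between 0.094 and 0.48 in all 40 channels.

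The labels give each animal a single dye. Of the markers, Gfap differed most between the green and the red channel of an array. The AK140151 readings of both channels of an array were apart by 1.92 at the median, by more than 1 on 14 of the 20 arrays, and by 5.05 at most. Over arrays, the green and red readings correlated with r = -0.067 (rho = -0.059). The K01347 probe of Gfap gave 0.26 and the NM_010277 probe 0.072. For Tubb3 the median difference within an array was 0.55, for Eno2 0.25 and for Aldh1l1 0.15. Their green and red readings correlated with r = 0.21, 0.28 and 0.33, and over all probes well above background the median of this correlation was 0.12, with a 95th percentile of 0.58.

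The order in which the markers paired depended on the Gfap probe, the scaling, the slide medians and the farthest channels. With the representative probes and quantile normalization, the highest r in both dyes was that of Aldh1l1 and Tubb3, an astrocyte and a neuronal marker, at 0.64 in green and 0.69 in red (rho = 0.55 in both dyes). Among the correlations of Tubb3 with all probes these values stood at the 95.3th percentile in green and the 94.9th in red. Within the sides of the Tubb3 gap in green, r of this pair was -0.050 in the 7 channels above it and 0.20 in the 13 below. In the 15 red channels below the widest red gap it was 0.73. Without the 2 channels farthest from the Aldh1l1 median, r was 0.58 in green and 0.37 in red, and after subtraction of slide medians it was 0.51 and 0.71. This pair was then not the highest in red without the farthest channels, where Aldh1l1 and Eno2 gave 0.60. Nor was it the highest in green after slide medians were subtracted, where Gfap and Aldh1l1 gave 0.68. Aldh1l1 and Tubb3 gave 0.75 and 0.91 without the quantile step, and the green value was then below the 0.85 of Aldh1l1 and Eno2. The median r of Aldh1l1 over all probes was then 0.63 in green and 0.57 in red.

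The neuronal markers Tubb3 and Eno2 gave r = 0.0090 in green and 0.15 in red on the quantile-normalized scale. Their r without the quantile step was 0.47 in green and 0.80 in red, where the median over all probes with Eno2 was 0.61 and 0.60, and with equal 75th percentiles the red value was 0.37. Aldh1l1 and Eno2 correlated with r = 0.38 in green and 0.51 in red, and with r = 0.56 and 0.60 without the 2 farthest channels. Without slide 5 the red value was 0.28.

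The astrocyte markers Gfap and Aldh1l1 correlated with r = 0.49 in green and 0.39 in red (rho = 0.45 and 0.48). In green this was -0.022 in the 14 channels above the gap of the AK140151 probe and 0.82 in the 6 below. In red it was 0.51 in the 14 channels above the widest gap and -0.48 in the 6 below. After subtraction of slide medians the values were 0.68 and 0.46, and without the 2 farthest channels they were 0.32 and 0.40. With the NM_010277 probe in place of the AK140151 probe they were 0.68 in green and 0.67 in red, and with the K01347 probe 0.64 and 0.58, close to the values of Aldh1l1 and Tubb3. Gfap and Tubb3 gave r = 0.37 in green and 0.24 in red. The red value was 0.10 after subtraction of slide medians and 0.12 with equal 75th percentiles, and it was 0.41 with the K01347 probe and 0.46 with the NM_010277 probe. Gfap and Eno2 gave r = 0.055 and -0.12 with the AK140151 probe, 0.12 and 0.13 with the K01347 probe and 0.054 and 0.12 with the NM_010277 probe. The AK140151 values turned in sign to -0.31 and 0.14 without the 2 farthest channels, and were 0.084 and 0.18 after subtraction of slide medians.

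**Figure D4:**
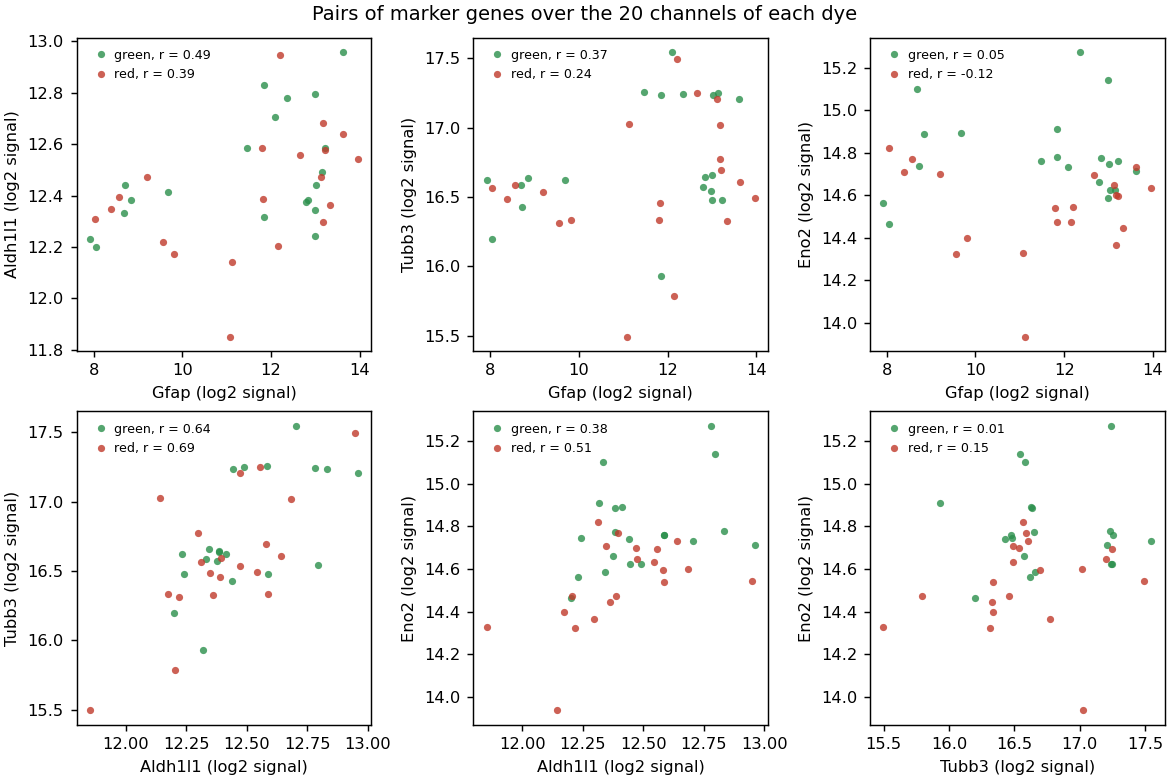
Level of each marker gene against each other marker gene (log2 signal, representative probe of each) in the 20 green and 20 red channels, with Pearson's r of each dye. With these probes Aldh1l1 and Tubb3 show the highest r in both dyes (0.64 and 0.69), and on this quantile-normalized scale Gfap and Tubb3 each leave an empty stretch in green.

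Genes that varied with the markers were sought in 2 ways, by lists of cell type markers and by the genes of most similar pattern. All such correlations are read against those of the 16342 other probes well above background, whose median r was -0.13 in green and -0.087 in red for Gfap. Microglia and macrophage genes had positive correlations with Gfap. All 9 list genes that were well above background in all channels had r above 0 in both dyes, which was so for 33.4% of all probes. Their median r was 0.60 in green and 0.43 in red, where the 95th percentile over all probes was 0.58 and 0.61. The highest r of these genes was 0.64 in green and 0.53 in red, so in red none passed that percentile. C1qb, a chain of the complement protein C1q, gave r = 0.64 and 0.53, Aif1, a microglial calcium-binding protein, gave 0.64 and 0.49, and P2ry12, a receptor of resting microglia, gave 0.23 and 0.13. With the K01347 probe the median was 0.78 in green and 0.65 in red, and with the NM_010277 probe 0.80 and 0.66.

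The same microglial list had mostly positive correlations with Tubb3 and Aldh1l1. For Tubb3, 8 of the 9 genes had r above 0 in both dyes, with medians of 0.67 and 0.51. For Aldh1l1 it was 7 of 9, with medians of 0.71 and 0.42. Background shares were 33.0% for both. The 95th percentile over all probes was 0.63 in green and 0.70 in red for Tubb3, and 0.67 and 0.66 for Aldh1l1. In red the highest r of the 9 genes was below it, at 0.68 for Tubb3 and 0.64 for Aldh1l1. Without the quantile step the medians stayed above 0 but lay close to those of all probes for Aldh1l1, at 0.65 against 0.63 in green and 0.55 against 0.57 in red, and for Tubb3 in red, at 0.54 against 0.53. For Gfap they stayed above them, at 0.63 against 0.11 and 0.46 against 0.068. With Eno2 the medians were 0.025 and 0.0055, and without the quantile step they were 0.33 and 0.26, below the 0.61 and 0.60 of all probes.

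Other astrocyte genes were above 0 about as often as all probes in their correlation with the astrocyte markers. With Gfap, 5 of 14 had r above 0 in both dyes and 9 had r below 0 in both, where 33.4% and 50.6% of all probes did. The medians were -0.21 in green and -0.18 in red, against -0.13 and -0.087 over all probes. Vim was the closest, at r = 0.73 and 0.74, and Sox9, an astrocyte transcription factor, gave 0.38 and 0.41. Gjb6, a gap junction protein of astrocytes, was lowest in green, with r = -0.67 and -0.52. Fgfr3, a growth factor receptor, was lowest in red, with -0.49 and -0.57. With Aldh1l1, 5 of 14 genes were above 0 in both dyes and 8 below, where 33.0% and 50.6% of all probes were, and Slc1a2, the main glutamate transporter of astrocytes, gave r = -0.56 and -0.60. These signs were read after quantile normalization, and without it the median over the list was 0.057 in green and -0.14 in red for Gfap, against 0.11 and 0.068 over all probes, and 0.52 and 0.39 for Aldh1l1, against 0.63 and 0.57.

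Broad neuronal genes were divided by sign on the quantile-normalized scale. With Tubb3, 7 of 14 had r above 0 in both dyes and 3 below 0 in both, where 33.0% of all probes were above 0 and 50.7% below. With Eno2 the counts were 7 and 4, where the shares of all probes were 36.8% and 37.4%. When the quantile step was left out, 11 of 14 were above 0 in both dyes with Tubb3 and 14 of 14 with Eno2, and 0 were below with either, where 86.1% and 99.0% of all probes were above 0. Stmn2, a microtubule regulator of growing neurons, was closest to Tubb3 at r = 0.88 in green and 0.84 in red. Gap43 was next in green, with 0.66 and 0.56, and Elavl4 was next in red, with 0.011 and 0.58. Snap25, a synaptic membrane protein, gave -0.54 and -0.50 with Tubb3. Syp, a synaptic vesicle protein, was closest to Eno2 at r = 0.76 and 0.75. Gap43 also followed Gfap, with r = 0.73 and 0.72, and this was 0.88 and 0.82 with the K01347 probe of Gfap. Of 15 broad neuronal genes, 5 were above 0 with Gfap in both dyes and 6 below, against 33.4% and 50.6% of all probes. The list medians were 0.055 in green and -0.26 in red, and Mapt gave -0.67 and -0.43. The counts were 7 and 6 without the quantile step, against 52.8% and 30.7% of all probes. The 6 cholinergic genes well above background in all channels are too few for their counts to be read as a difference between markers. With Gfap, 2 were above 0 in both dyes and 3 below, against 33.4% and 50.6% of all probes. Their medians with Gfap were -0.21 in green and -0.16 in red. With Eno2, 4 were above 0 in both dyes and 1 below, with medians of 0.30 in green and 0.36 in red, against 0.0050 and -0.014 over all probes. The shares of all probes above and below 0 in both dyes were 36.8% and 37.4% with Eno2, 33.0% and 50.6% with Aldh1l1 and 33.0% and 50.7% with Tubb3. With Aldh1l1, 3 of the cholinergic genes were above 0 in both dyes and 3 below, with Prph, a neuronal intermediate filament, at r = 0.76 and 0.85 and Isl1, a motor neuron transcription factor, at -0.64 and -0.38. With Tubb3, 2 were above and 3 below, with Prph at 0.35 and 0.51 and Slc5a7 at -0.73 and -0.69. The counts above and below 0 without the quantile step were 6 and 0 with Eno2, 5 and 0 with Aldh1l1 and 3 and 1 with Tubb3, where 99.0%, 96.4% and 86.1% of all probes were above 0. The list medians with these 3 markers were then below those of all probes in both dyes.

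Oligodendrocyte and endothelial genes had negative correlations with Tubb3 on the quantile-normalized scale, on which 50.7% of all probes were below 0 in both dyes and the median r over all probes was -0.16 in green and -0.10 in red. Of the 8 oligodendrocyte genes, Cnp had a flagged spot and was left out, and the other 7 all had r below 0 with Tubb3 in both dyes, with medians of -0.48 and -0.58. Mag, a myelin-associated glycoprotein, gave -0.76 and -0.86, and Mobp, a myelin protein, -0.76 and -0.78. The 5 endothelial genes well above background in all channels were also below 0, with medians of -0.50 and -0.36. With Aldh1l1 the medians of the oligodendrocyte genes were -0.38 and -0.47. The list medians turned in sign without the quantile step, with 1 of the 7 oligodendrocyte genes and 1 of the 5 endothelial genes still below 0 with Tubb3 in both dyes, where 4.23% of all probes were. The oligodendrocyte medians with Tubb3 were then 0.058 and 0.11 and the endothelial ones 0.16 and 0.13, all lower than the medians over all probes of 0.39 in green and 0.53 in red.

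**Figure D5:**
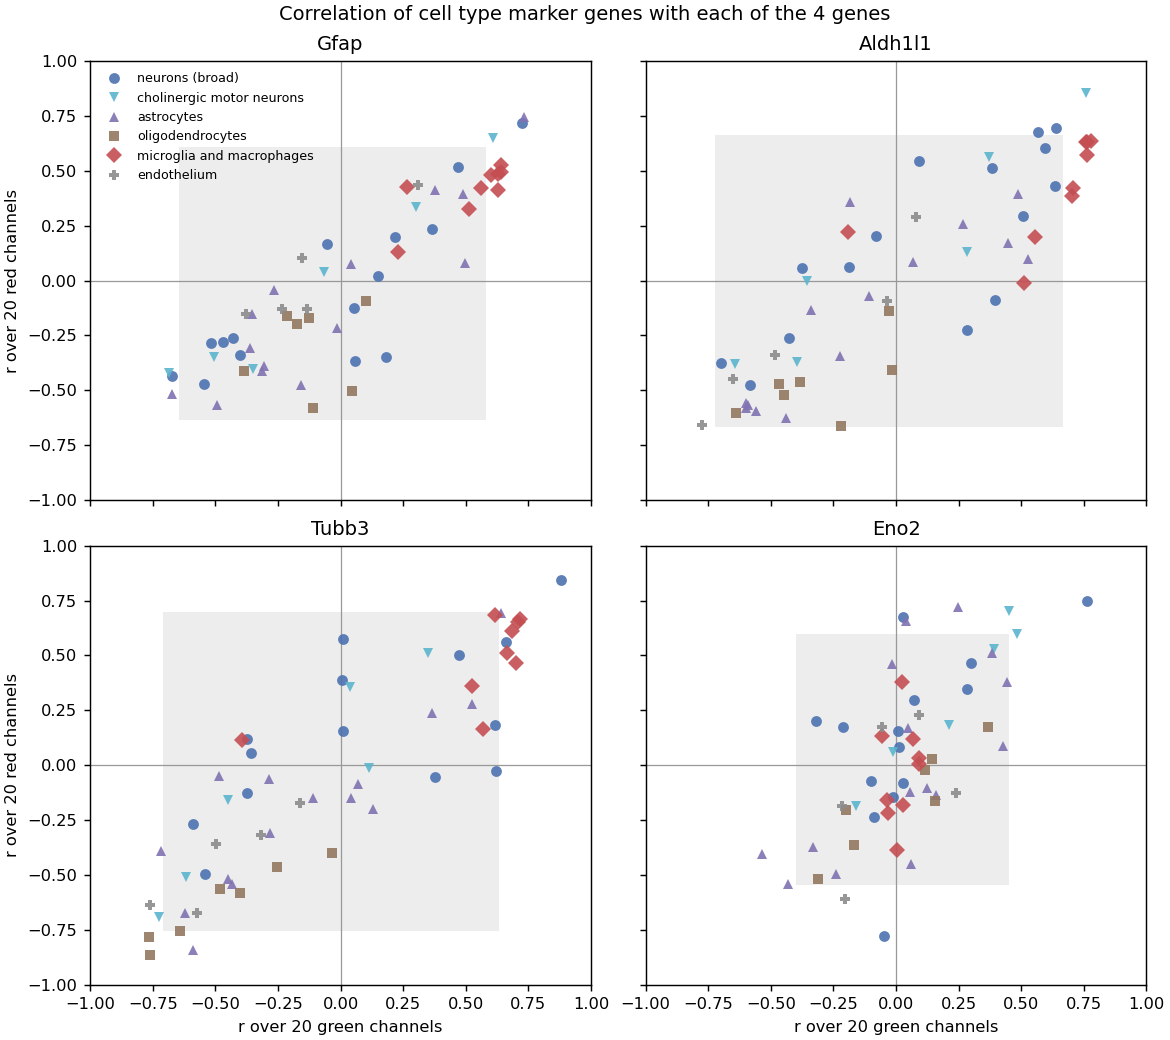
Pearson's r of each cell type marker gene with Gfap, Aldh1l1, Tubb3 and Eno2, over the 20 green channels (horizontal) and the 20 red channels (vertical); the gray box spans the 5th to 95th percentile of all probes. Microglial genes lie at the upper right for Gfap, Aldh1l1 and Tubb3 except Fcrls, below 0 in green for Aldh1l1 and Tubb3, and P2ry12, just below 0 in red for Aldh1l1, and oligodendrocyte genes lie at the lower left for Tubb3.

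The genes most similar to each marker were chosen for their r, which is therefore a description. Among 9289 gene names, the 5 closest to Gfap were Col16a1, Camk1, Tnip2, Slc14a1 and Arid5a, with a lower r of the 2 dyes between 0.79 and 0.82. Col16a1, a collagen chain, gave r = 0.82 in green and 0.83 in red, Camk1, a calcium-dependent kinase, 0.82 and 0.80, and Slc14a1, a urea transporter, 0.80 and 0.85. Col16a1 spanned 2.34 over the green channels and Camk1 3.37, against 5.70 for Gfap. With the NM_010277 probe of Gfap, Camk1 gave 0.89 and 0.91.

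The genes closest to Tubb3 had the highest correlations of the 4 sets. They were Nsdhl, Slc25a1, Arhgdig, Acot7 and Hpcal1, with a lower r between 0.90 and 0.92. Nsdhl, an enzyme of cholesterol synthesis, gave r = 0.92 in green and 0.93 in red, and Slc25a1, the mitochondrial citrate carrier, 0.91 and 0.94. After subtraction of slide medians these were 0.89 and 0.94 for Nsdhl and 0.89 and 0.94 for Slc25a1. The 5 closest to Aldh1l1 were Flot2, Drg2, Coro1b, Bscl2 and Ndn, led by Flot2, a membrane raft protein, at 0.85 and 0.87. Those closest to Eno2 included Ccnd3, Map2k7, Abcf2 and Syp, led by Ccnd3, a cyclin, at 0.80 and 0.79, the red value being 0.62 after subtraction of slide medians.

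The markers were also set against how many probes a channel detected. The share of probes well above background ranged from 46.2% to 71.9% over green and from 44.6% to 64.0% over red channels. Its r with Gfap was -0.031 in green and 0.11 in red. The largest value among the markers was that of Tubb3 in red, r = 0.45, above 96.6% of all probes, whereas in green it was -0.015. Aldh1l1 gave 0.26 in green, above 86.1% of all probes, and 0.13 in red. Its part in the red correlations of Tubb3 was not tested.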

How the data were processed

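The authors deposited the scanner output of 20 two-color arrays of design 014868. Per the file headers, Feature Extraction 9.5.3.1 had written a signal intensity for each spot and dye, background-subtracted and dye-normalized within each array. The study then analyzed single channels with LIMMA after quantile normalization. Here, control spots were left out and the log2 processed signals of 43379 gene spots in 40 channels were quantile-normalized together (limma 3.58.1, R 4.3.3). Outlier-flagged spots were dropped afterward, which removed 6 of 400 K01347 and 15 of 400 Tubb3 spots, and spots of a probe were averaged. No marker spot was saturated. The other 1460 value columns of the channels, counted over all files, were not used.

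A probe counted as well above background by the software's flag. A gene was represented by the probe so flagged in most channels, ties going to the brighter. Correlations were computed with Python 3.11.15, numpy 2.4.6 and pandas 2.3.3 for each dye apart, and the correlation script was checked on simulated data. Slide centering subtracted the slide median and left out the slide with a single array. The rule for similar genes took the 5 names with the highest value of the lower r of the dyes, without names that are only clone or transcript identifiers. Named members of lists were chosen after their values were seen. The genes, lists and rules were chosen with earlier results of these data known. The number of arrays limits the precision, and channels could not be matched to animals, so no group was compared and no replicate number was used. Probe sequences were not analyzed here. Some genes that these rules would name are not reported here.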

Additional observations from a re-analysis of the deposited data

How the results depend on the processing

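The channels come from animals of unstated genotype and time point, so no spread below is a replicate error, and a shift of less than 0.2 in a correlation, a size set after the data had been seen, was read as no change. Median levels moved by less than their SD over channels without the quantile step, with equal 75th percentiles and with the dyes normalized apart. Normexp background correction (offset 50) raised the median of all probes from 6.25 to 6.99 and lowered the medians in green and red to 11.39 and 11.15 for Gfap, 11.53 and 11.43 for Aldh1l1, 15.98 and 15.86 for Tubb3 and 13.99 and 13.78 for Eno2. Gfap kept a span above that of 99.7% or more of the probes under every scaling run, while without the quantile step the Aldh1l1 span in green was 1.72, above 43.1% of the probes.

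Without the quantile step r was 0.91 for Aldh1l1 and Tubb3 in red, 0.85 in both dyes for Aldh1l1 and Eno2, and 0.47 in green and 0.80 in red for Tubb3 and Eno2, which was 0.37 in red with equal 75th percentiles. Without the 2 farthest channels r was -0.31 in green and 0.14 in red for Gfap and Eno2 and 0.37 in red for Aldh1l1 and Tubb3. Slide centering gave 0.18 for Gfap and Eno2 in red. The NM_010277 probe gave red values of 0.67 with Aldh1l1, 0.46 with Tubb3 and 0.12 with Eno2, and the K01347 probe 0.13 with Eno2. Leaving out each slide in turn gave -0.12 to 0.27 for Gfap and Eno2 in green, 0.28 to 0.59 for Aldh1l1 and Eno2 in red, -0.20 to 0.13 for Tubb3 and Eno2 in green and 0.067 to 0.36 for them in red.

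For lists, the median r less that over all probes was compared, a measure chosen after seeing the data, as were equal 75th percentiles and normexp for it. Without the quantile step it was -0.093 and -0.028 (green, red) for Aldh1l1 with neurons, 0.018 in red for Tubb3 with neurons, and with cholinergic genes -0.34 and -0.29 for Aldh1l1, -0.36 and -0.32 for Tubb3 and -0.16 and -0.096 for Eno2. With microglial genes it was 0.53 in green for Gfap, 0.026 and -0.019 for Aldh1l1, 0.36 and 0.011 for Tubb3 and -0.28 and -0.34 for Eno2, and with endothelial genes -0.34 in red for Eno2. Slide centering gave 0.093 with neurons and 0.18 with cholinergic genes for Gfap in red, and equal 75th percentiles 0.12 with astrocytes for Eno2 in red. The remaining 172 list values of 192 shifted by less than 0.2, as did 144 of 162 for pairs. The sign changed in 23 of the 192 list values and in 17 of the 162 pair values, some of them among these smaller shifts. The causes were not tested.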
